A study of Mus musculus with 8 samples.

Results

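Glutathione transferases, UDP-glucuronosyltransferases and sulfotransferases were examined in the proximal large intestine of mice with and without the bacterium Roseburia intestinalis. Members were all rows of the deposited expression table whose gene symbol begins with Gsta, Gstk, Gstm, Gsto, Gstp, Gstt or Gstz, with Ugt1a, Ugt1b, Ugt2a or Ugt2b, or with Sult, followed by a digit. The rule took 41 of the 17041 genes, of which 20 are Gst, 12 are Ugt and 9 are Sult genes. It uses names only, and 32 members (18 Gst, 8 Ugt and 6 Sult) had a mean of at least 10 over all libraries and entered the test.

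All 8 libraries are from ApoE knockout mice, which lack apolipoprotein E and are prone to atherosclerosis, and which were bred germ-free. The mice were colonized by 1 oral gavage at 8 weeks of age and dissected at 26 weeks. The "core" group (3 libraries) received a bacterial community that makes no butyrate. The other group, labelled core plus Roseburia intestinalis and called the Roseburia group here (5 libraries), received that community together with this butyrate producer. No group without bacteria and no group with an intact Apoe gene is among these samples. Each library is bulk tissue, so that fewer cells of a type and less RNA per cell cannot be told apart. The labels number the libraries as replicates without tying each to its own mouse, so the p-values below measure the spread between these 8 libraries. Estimated depth ran from 4595293 to 15345326 reads per library, so that 31.4 to 109 reads lie behind a value of 50.

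These enzymes carry out the conjugation step of detoxification. Glutathione transferases add the tripeptide glutathione to reactive compounds, UDP-glucuronosyltransferases add glucuronic acid to bilirubin, steroids, bile acids and plant phenols, and sulfotransferases add sulfate from the donor PAPS. The products are more soluble and leave the cell through ABC transporters. In the gut, the epithelium holds most of this activity and meets dietary and bacterial compounds first. Many of the genes are known to respond to the oxidant sensor NRF2, to the aryl hydrocarbon receptor AHR and to nuclear receptors, and the epithelial factor CDX2 is known to drive UGT genes.

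Sequence before the transcription start is shown for the Gstp pair because both genes hold a short motif of NRF2. The windows are 120 bases long, end at the last base before the start and run 5′ to 3′ on the gene's strand. They are from RefSeq on build GRCm38.p6, not the build mm9 named in the submitters' processing notes. Capitals mark this motif, TGANTCAGC, searched on both strands. In Gstp1 (chr19:4037913-4038032, minus strand) the match lies 74 to 66 bases before the start, and in Gstp2 (chr19:4042222-4042341, minus strand) 89 to 81 bases before it.
Gstp1: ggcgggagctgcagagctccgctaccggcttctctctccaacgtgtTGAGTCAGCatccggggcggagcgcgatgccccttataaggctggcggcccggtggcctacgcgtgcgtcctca
Gstp2: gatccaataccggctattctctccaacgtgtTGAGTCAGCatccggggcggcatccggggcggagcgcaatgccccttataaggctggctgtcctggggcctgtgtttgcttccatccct

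Promoter sequence was at hand for 37 of the 41 members, in 47 windows. Within the 250 bases before a start, TGANTCAGC was found in 2 of these 47 windows (the Gstp pair) and in 1.02% of all 32851 windows. The Gstp genes are neighbours that share much sequence, so their matches are not independent counts. The wider antioxidant motif TGACNNNGC, which overlaps TGANTCAGC where N is C, was found in 3 windows (Gsta3, Gstm5 and Gstm7; 10.2% of all). The AHR core GCGTG was found in 9 windows of 8 members (28.2% of all windows), and the CDX motif TTTATG in 4 windows (10.8% of all). Both Gstp matches read TGAGTCAGC, with G at N, and do not match TGACNNNGC. A match describes the letters only and does not tell which factor binds there, and binding of NRF2 was not tested.

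The question was which of these genes differ once a butyrate producer joins the community. No member passed the threshold (limma, Benjamini-Hochberg adjusted p of 0.05 over 13020 genes), and the smallest adjusted p of a member was 0.588. No gene of the table passed either (0% of genes tested). At an unadjusted p under 0.05, 1 member was higher in the Roseburia group (Gstp1) and 2 were lower (Gstm2 and Gstm6). Over all genes tested these shares were 4.44% higher and 3.69% lower (8.13% either way), so the members' 3 of 32 lie near the background. The groups did not overlap in 2 members, both lower (Gstm2 and Gstm6), against 2.53% of all genes higher and 3.31% lower (5.84% either way). Single libraries moved these counts. Without core replicate 3, 8 members were higher at an unadjusted p under 0.05 (Gsta1, Gstm3, Gsto1, Gstp1, Gstp2, Ugt1a1, Ugt1a6a and Ugt1a6b; 4.37% of all genes in that fit) and 0 lower, and 8 were apart and higher (6.41% of all genes), with 0 past the adjusted threshold. Without core replicate 2, 6 were apart and lower (11.8% of all genes). Of the members, 0 had in the authors' deposited table a posterior probability of differential expression of at least 0.95, a level reached by 0.481% of its genes, and Gstm2 came nearest with 0.88. The median log2 difference, Roseburia group minus core, was 0.09 over the 32 members and −0.00 over all genes tested (19 members above 0 and 13 below, beside 49.6% of all genes above 0).

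**Figure D1:**
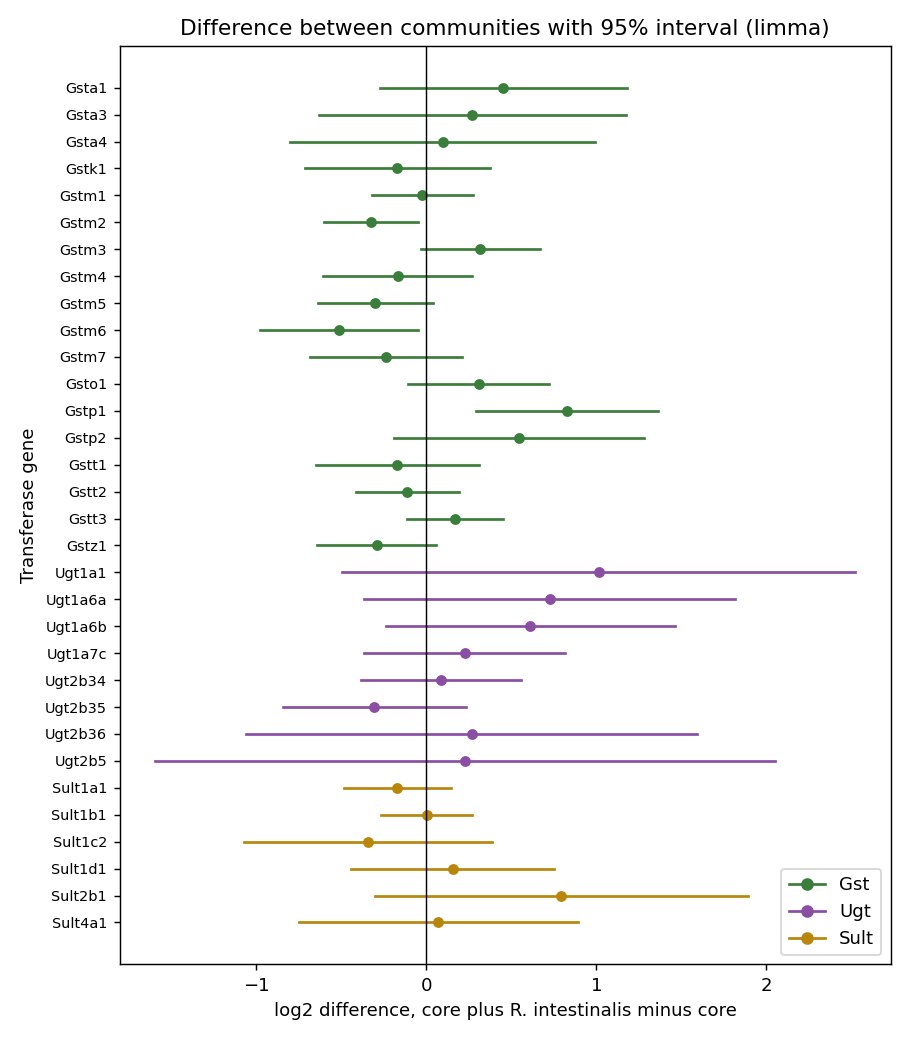
Log2 difference between the communities, the Roseburia group (n = 5) minus core (n = 3), for the 32 members tested (dots), with 95% intervals from limma (lines). The intervals of Gstp1, Gstm2 and Gstm6 lie on 1 side of 0, and those of Ugt1a1 and Ugt2b5 are wide, from −0.50 to 2.52 and from −1.60 to 2.05.

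The pi class conjugates small electrophiles and had the largest differences among the glutathione transferases. Gstp1 read 567, 638 and 1124 in core replicates 1 to 3, and 1477, 1816, 1218, 1109.6 and 1091 in Roseburia replicates 1 to 5. The groups overlapped through core replicate 3 alone, which lay above replicates 4 and 5 of the other group. Gstp1 averaged 777 ± 303 (SD, n = 3) and 1342 ± 306 (n = 5), a log2 difference of 0.83 (SE 0.241, limma unadjusted p = 0.00605, adjusted p = 0.588). Without core replicate 3 the difference was 1.13 and the groups did not overlap (adjusted p = 0.433). Under limma's library weights its adjusted p was 0.0482, and without the library of highest weight, Roseburia replicate 3, it was 0.443.

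Gstp2, its neighbour in the genome, read 395, 607 and 1089 in the core libraries and 716, 1324, 1118, 1092 and 611 in Roseburia libraries. The difference was 0.55 (SE 0.333, adjusted p = 0.606), and the groups overlapped. The pair is hard to separate by sequence, as 62.3% of the 50-base stretches of the longest coding Gstp1 transcript in GENCODE M21 also occur in Gstp2, and 37.7% occur in no other gene. Their sum, which does not depend on how reads were split between them, lay between 962 and 2213 in core and 1701 to 3140 in Roseburia libraries, with overlap.

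The mu class had 6 of 7 members with a lower mean in the Roseburia group, with a class median of −0.24. Gstm2 read 1444, 1250.3 and 1311 in core libraries and 1011, 956, 1094, 1026 and 1244.5 in the others. The groups did not overlap, with the gap narrow between core replicate 2 and Roseburia replicate 5. The means were 1335 ± 99.1 and 1066 ± 111, a log2 difference of −0.33 (SE 0.124, unadjusted p = 0.0242, adjusted p = 0.588 by limma). With TMM scaling (trimmed mean of M values) the ranges overlapped, as they did after quantile normalization, which set the groups apart for Gstp1 instead. The unadjusted p of Gstm2 was not under 0.05 without core replicate 1, core replicate 3 or Roseburia replicate 2.

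Gstm6, read at a lower level, stood at 104, 96.5 and 103 in core and at 58.0, 55.0, 86.4, 72.8 and 86.7 in Roseburia libraries. Every core library lay above every library of the other group, for a difference of −0.51 (SE 0.209, unadjusted p = 0.0327, adjusted p = 0.588 by limma). The difference was −0.31 under library weights and −0.30 with the number of the sample name as a block, and there, as without core replicate 1, core replicate 2, core replicate 3, Roseburia replicate 1 or Roseburia replicate 2, its unadjusted p was not under 0.05. Gstm5 averaged 370 ± 12.4 and 303 ± 47.0 (difference −0.30). Gstm1, the member of the class with the highest level per kilobase of transcript, averaged 2446 ± 220 and 2413 ± 298, a difference of −0.03 with a 95% interval from −0.32 to 0.27. Gstm3 went the other way, with means of 225 ± 33.4 and 279 ± 33.7 (difference 0.32, adjusted p = 0.588). Gstm4 and Gstm7 had differences of −0.17 and −0.24.

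Most connective tissue and muscle markers had a lower mean in the Roseburia group. All 8 fibroblast markers had a lower mean in the Roseburia group, and their summed level lay between 8322 and 9465 in core and 4962 to 7467 in the other group, without overlap. Of 10 smooth muscle markers 8 were lower, with sums from 130088 to 179880 and from 87538 to 155869. With the mean log2 of the smooth muscle markers as a covariate, the differences were −0.40 for Gstm2 and −0.67 for Gstm6, and 0.86 for Gstp1 (adjusted p = 0.198 each). In that fit 11.5% of all genes were higher and 8.44% lower at an unadjusted p under 0.05. Of 8 adipocyte markers all 7 tested were lower (median −1.73), 4 of them at an unadjusted p under 0.05, beside 3.69% of all genes lower. Their sums ran from 1777 to 4531 and from 483 to 2605. The part of muscle, fibroblasts and fat in the members' differences was not tested.

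The other classes of glutathione transferase had intervals that included 0. Alpha class enzymes act on lipid peroxidation products, and Gsta4 is known for its preference for hydroxynonenal. Gsta1 read 286, 192 and 561 in core and 291, 629, 434, 468 and 393 in Roseburia libraries (difference 0.45). Of its 50-base stretches 10.3% occur in no other gene, so that its value may hold reads of its copies. Gsta4 lay between 282 and 774 in core and 252 to 746 in the other group (difference 0.09). Gsta3 was even in core (78.1 to 87.3) and ran from 40.1 to 202 in the Roseburia group.

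Gsto1, the omega class enzyme that reduces dehydroascorbate and arsenic compounds, had the highest level per kilobase of the Gst genes (median 2875 per kilobase over 8 libraries). It read 2457, 2605 and 3753 in core and 3044, 4300.3, 3800.1, 4079.7 and 2862 in Roseburia libraries. Core replicate 3 again lay within the other group, and the difference was 0.31 (SE 0.187, adjusted p = 0.606). Gstk1, of mitochondria and peroxisomes, had a difference of −0.17, and Gstz1, the maleylacetoacetate isomerase of tyrosine breakdown, one of −0.29 (492 ± 78.4 and 401 ± 49.7). The theta genes Gstt1, Gstt2 and Gstt3 had differences of −0.17, −0.11 and 0.17. Gsta2 (0 to 12.8) and Gsto2 (0 to 6.39) stayed below the limit of the test.

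**Figure D2:**
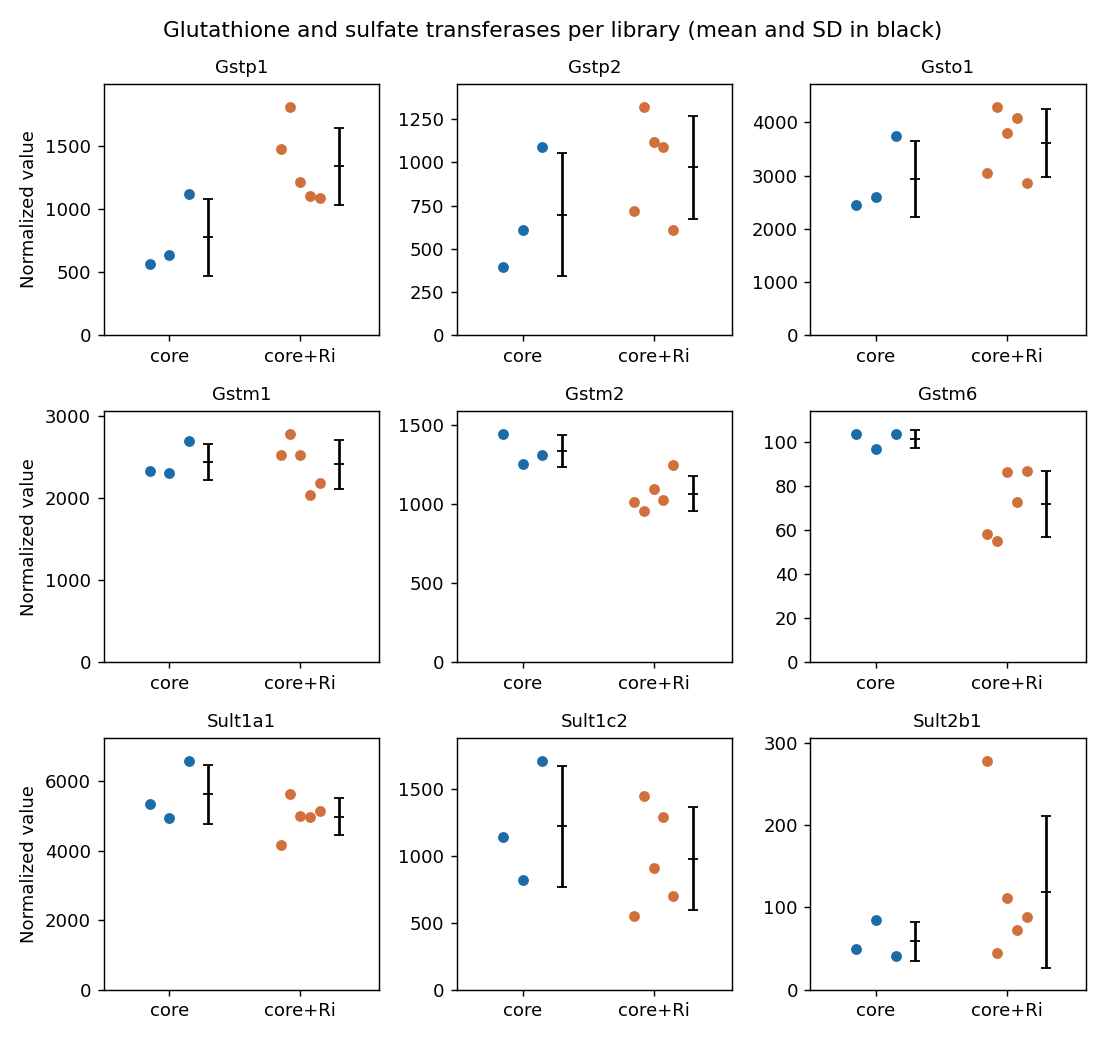
Points show the normalized value of each library, and black marks the mean and SD, for 6 glutathione transferases and 3 sulfotransferases in core (n = 3) and the Roseburia group (core+Ri, n = 5). The ranges do not overlap for Gstm2 and Gstm6, and for Gstp1 a core library at 1124 lies within the other group.

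UDP-glucuronosyltransferases had 7 of 8 tested members with a higher mean in the Roseburia group, and none with groups apart. Their spread within a group was about as large as, or larger than, the difference of the means. Ugt1a1, the enzyme that conjugates bilirubin, read 578, 445 and 2597 in core libraries and 1092, 4072, 1979, 3244 and 598 in Roseburia libraries. Core replicate 3 was above the other core libraries by more than the difference of the group means, which were 1206 ± 1206 and 2197 ± 1453. The log2 difference was 1.01 with a 95% interval from −0.50 to 2.52 (SE 0.682, adjusted p = 0.614), 1.80 without core replicate 3 and 0.53 without core replicate 2.

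The phenol-conjugating Ugt1a6a and Ugt1a6b followed the same libraries. Ugt1a6a read 202, 139 and 523 in core and 214, 836, 399, 583 and 266 in Roseburia libraries (difference 0.73, adjusted p = 0.616). Ugt1a6b read 675, 412 and 1330.5 and then 986, 1638, 1021, 1545 and 627 (difference 0.61, adjusted p = 0.610). With 1 library left out, the difference ran from 0.32 to 1.27 for Ugt1a6a and from 0.21 to 1.06 for Ugt1a6b, lowest without core replicate 2 and highest without core replicate 3 in both. Ugt1a7c, from the same locus, averaged 2056 ± 521 and 2461 ± 787 (difference 0.22).

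All Ugt1a genes splice their own first exon to common last exons, so reads of the common part cannot be told apart. In GENCODE M21, 41.8% of the 50-base stretches of Ugt1a1 occur in no other gene, 30.7% of Ugt1a7c, 19.3% of Ugt1a6b and 0% of Ugt1a6a. All stretches of Ugt1a6a, those of its first exon included, occur in transcripts listed there under Ugt1a7c. The 0% and the 30.7% therefore describe that annotation, and need not hold for the build mm9. How the reads were divided among these genes is therefore uncertain. The sum over the 6 Ugt1a genes read 3328, 2656 and 7113 in core and 3802, 9976, 6061, 8302 and 3316 in Roseburia libraries. The sum has the same high libraries as Ugt1a1, with means of 4365 ± 2403 and 6291 ± 2860 and overlapping groups.

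The Ugt2b enzymes, which act on steroids and bile acids, split in level and in spread. Ugt2b34, with the highest level per kilobase of the Ugt genes (median 1197 per kilobase), read 4792, 3902 and 6135 in core and 3693, 6313, 5528, 6357 and 4435 in the others (difference 0.08, 95% interval from −0.38 to 0.55). Ugt2b5 had the largest spread of the members with a mean of at least 50. It read 200, 70.4 and 533 in core and 159, 566, 263, 568 and 47.2 in Roseburia libraries, a 12.0-fold range over the 8 libraries. Its group difference was 0.23 (SE 0.824), and it turned to −0.51 without core replicate 2. Of the 50-base stretches of Ugt2b5, 58.3% occur in no other gene and 34.8% in Ugt2b38, so its value may hold reads of Ugt2b38. Ugt2b36 varied alike at a low level (5.24 to 45.9), and Ugt2b35 had the only mean difference below 0 of the tested Ugt genes (−0.31). Ugt1a2, Ugt1a5, Ugt2a2 and Ugt2b1 were below the limit of the test, with means over 8 libraries from 0.0863 to 9.09.

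Among the sulfotransferases, 4 of 6 tested members had a difference above 0 and 2 below. Sult1a1, the main phenol sulfotransferase, had the highest level per kilobase of all members (median 3697 per kilobase). It read 5324, 4947 and 6578 in core and 4152, 5623, 4980.3, 4969.6 and 5149.7 in Roseburia libraries (difference −0.17, 95% interval from −0.49 to 0.14). Sult1b1, which acts on thyroid hormones and phenols, was the steadiest member. Its means were 1435 ± 180 and 1430.2 ± 72.2, a difference of 0.00 with an interval from −0.27 to 0.27.

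Sult1d1, which acts on catecholamines, averaged 1539 ± 599 and 1668 ± 445 (difference 0.15). Sult1c2 read 1141, 819.7 and 1713 in core and 554, 1452.5, 909, 1292 and 699 in the others, with a difference of −0.35 (SE 0.329, adjusted p = 0.689). Core replicate 3 held the highest value here too, and the difference was −0.07 without it and −0.60 without core replicate 2. Sult2b1, which sulfates cholesterol and pregnenolone, read 49.2, 85.2 and 41.3 in core and 278, 44.2, 111, 72.0 and 88.2 in Roseburia libraries. Its difference of 0.79 (SE 0.495, adjusted p = 0.610) rested largely on replicate 1 of the latter group, and was 0.42 without it. Sult4a1, known from brain, was near 22 in both groups (21.4 ± 8.56 and 22.3 ± 7.71). Sult1c1, Sult1e1 (the oestrogen sulfotransferase) and Sult5a1 had means over 8 libraries of 1.86, 1.08 and 1.13 and were not tested.

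Many members varied widely within a group, in an order of libraries that recurred from gene to gene. Slc10a2, the ileal bile acid transporter, and Hoxb13, a positional gene of the distal colon, were taken to order the libraries, and other genes of their marker lists do not all share that order. Alpi (296) and Fabp2 (6700) of the small intestinal list were highest in Roseburia replicate 1, where Hoxd13 of the distal list was lowest (0.67). B4galnt2, also of the distal list, was highest in the 3 libraries of lowest Hoxb13 (11291, 15476 and 14797). Slc10a2 read 49.0, 13.9 and 510 in core and 59.7, 818, 414, 949 and 80.5 in Roseburia libraries. Hoxb13 read 141, 439 and 25.3 in core and 247, 2.16, 394, 8.26 and 663 in the others. Core replicate 3 and Roseburia replicates 2 and 4 had the lowest Hoxb13, and these 3 with Roseburia replicate 3 had the highest Slc10a2.

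The 4 libraries with the highest Slc10a2 were also the 4 highest for 11 of the 32 members (34.4%), against 3.33% of all genes tested. By family these were 7 of 8 Ugt genes (all tested but Ugt2b35), 4 of 18 Gst genes (Gsta1, Gsta4, Gsto1 and Gstp2) and 0 of 6 Sult genes. The Ugt genes include the 4 tested Ugt1a genes, which share their last exons and so are not independent counts. The 3 libraries with the lowest Hoxb13 were the 3 highest for 9 members (28.1%), against 6.18% of all genes tested, and these include Sult1c2 and Sult1d1. They were the 3 lowest for 0 members, against 5.61% of all genes. Within core, replicate 3 was the highest library for 22 of 32 members (68.8%), against 32.9% of all genes tested. The share of large intestine from each position in a piece was not measured, and its part in these values was not tested.

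**Figure D3:**
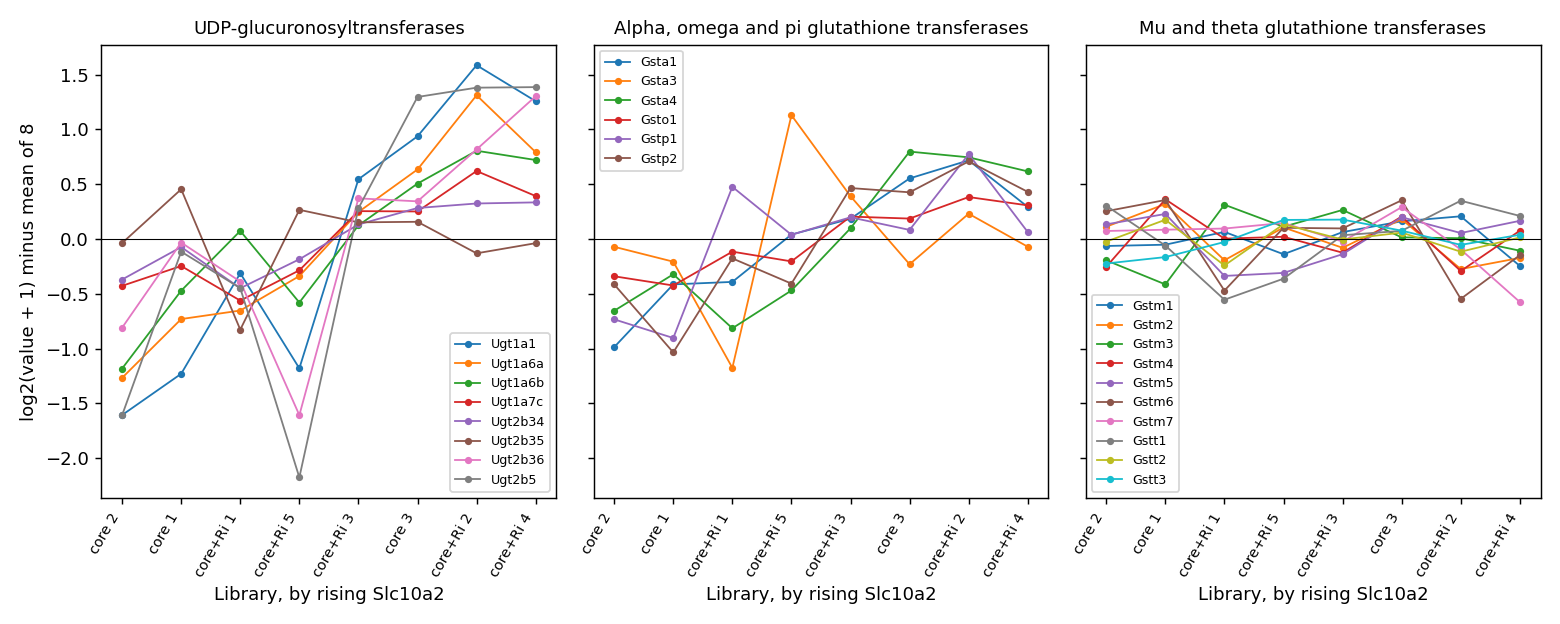
Log2(value + 1) minus the gene's mean over 8 libraries, with libraries (core+Ri is the Roseburia group) in order of rising Slc10a2, for 8 Ugt genes, 6 alpha, omega and pi class genes and 10 mu and theta class genes. For 7 of 8 Ugt genes the 4 libraries on the right are the 4 highest, while the mu and theta class lines span a narrower range.

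With log2 Hoxb13 as a covariate, 3 members were higher at an unadjusted p under 0.05 (Gstp1, Sult2b1 and Ugt1a6b; 10.7% of all genes in that fit) and 5 lower (Gstm2, Gstm5, Gstm6, Gstz1 and Sult1c2; 7.77% of all genes). No member passed the adjusted threshold there, and the smallest adjusted p was 0.197, for Gstp1 with a difference of 0.78. Without the 3 libraries of lowest Hoxb13, a choice made after the values were seen that leaves 2 core libraries and 3 others, 8 members were higher at an unadjusted p under 0.05 and 1 was lower. The 8 were Gsta1, Gstm3, Gstp1, Gstp2, Sult2b1, Ugt1a1, Ugt1a6a and Ugt1a6b, 25% of the members beside 9.74% of all genes in that fit. The groups were then apart in 9 members higher and 3 lower, beside 19% and 17.5% of all genes, and 0 members passed the adjusted threshold (smallest 0.267).

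**Figure D4:**
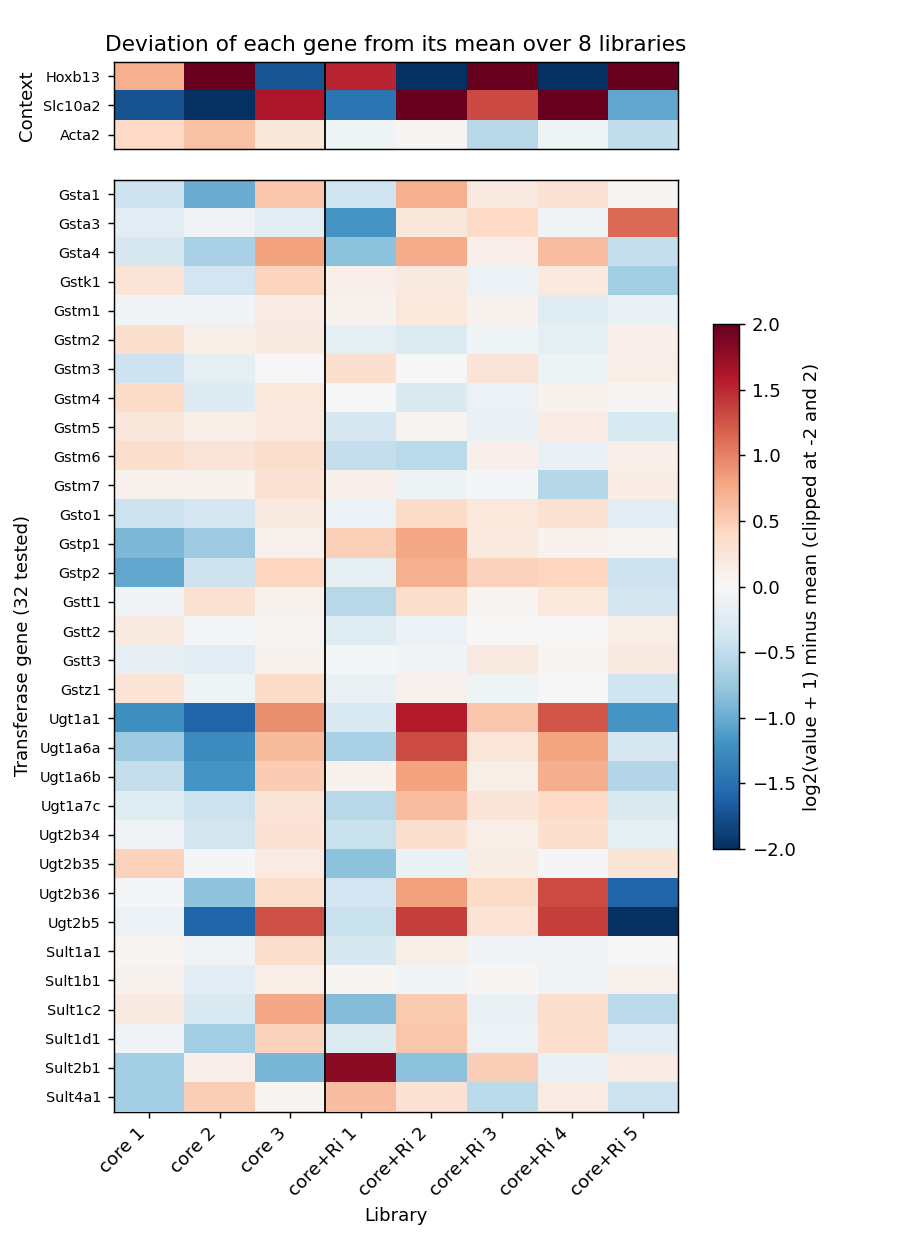
Log2(value + 1) minus the gene's mean over 8 libraries for the 32 members tested, by class, with Hoxb13, Slc10a2 and the muscle gene Acta2 above. Columns are the 3 core and 5 Roseburia (core+Ri) libraries, and core 3, core+Ri 2 and core+Ri 4 are red for Ugt1a1, Ugt1a6a, Ugt2b5 and Gsta4.

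Genes that supply or follow these enzymes were counted from lists, with 0 of any list past the adjusted threshold. Their counts at an unadjusted p under 0.05 stand beside 4.44% of all genes higher and 3.69% lower. Genes named below as without overlap stand beside 2.53% of all genes apart and higher and 3.31% apart and lower. Of 14 tested genes of glutathione synthesis and turnover, 10 had a difference above 0, and 2 were higher at an unadjusted p under 0.05 (median 0.18). Gclm, the modifier subunit of the enzyme that limits glutathione synthesis, averaged 181 ± 54.3 and 269 ± 53.9 (difference 0.59). Ggt1, which cleaves extracellular glutathione, ran from 1.59 to 9.18 and from 6.39 to 29.5, near the lower limit of the test. The 6 genes of the membrane-bound MAPEG family, not all of them glutathione transferases, had a median of −0.03 and 0 at an unadjusted p under 0.05. Alox5ap and Ptges, of leukotriene and prostaglandin synthesis, were at −0.43 and −0.45.

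PAPS and UDP-glucuronate, the donors, are made by separate routes. Of 10 tested genes of PAPS supply 8 were above 0 (median 0.18). Papss2, a PAPS synthase, read 1891, 1730 and 2485 in core and 4376, 3402, 3177, 2667 and 2816 in Roseburia libraries, without overlap (difference 0.69, SE 0.183, unadjusted p = 0.00345, adjusted p = 0.588 by limma). Papss1 averaged 521 ± 24.3 and 600.4 ± 52.8, also without overlap. The 8 genes of UDP-glucuronate supply had a median of 0.00, with Pgm2 at 0.41 and Slc35b1 at −0.23. Ugdh, which makes UDP-glucuronate and was picked out after its values were seen, read 4540, 3109 and 8068 in core and 4771, 9935, 6890, 8392 and 4073 in the others, so that its 4 highest libraries were those of Ugt1a1.

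Of 9 tested conjugate exporters 6 were above 0 and 3 were higher at an unadjusted p under 0.05 (median 0.21). Abcc3, which exports glucuronides towards the blood, read 603, 730 and 712 in core and 2181, 936, 1160, 761 and 901 in Roseburia libraries, without overlap (difference 0.70, adjusted p = 0.588). Abcc6 averaged 7.61 ± 4.84 and 18.8 ± 7.42. The 5 tested deconjugating enzymes had a median of 0.14 and 0 at an unadjusted p under 0.05, with Arsa at 0.50 and Arsk at −0.29.

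Of 20 genes of the NRF2 pathway 16 were above 0, 6 were higher at an unadjusted p under 0.05 and 0 lower (median 0.30). The 4 below 0 were Slc7a11 (−0.38), Ephx1 (−0.24), Hmox1 (−0.22) and Prdx1 (−0.11). Gclc, Gclm and Slc7a11 are also on the list of glutathione synthesis and turnover, so Gclm is counted in both. Fth1, the ferritin heavy chain, read 3851, 4097 and 4479 in core and 11064, 5566, 5853, 5912 and 5564 in the others, without overlap. Txnrd1, thioredoxin reductase, averaged 391 ± 49.7 and 546 ± 100.3 (difference 0.47). The AHR list had 6 tested genes, 3 above 0 and 0 at an unadjusted p under 0.05, and its targets Cyp1a1 and Cyp1a2 had means over 8 libraries of 0.201 and 0.505. Among AHR genes Arnt, the partner of the receptor, was at 0.29.

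Of 15 tested transcription regulators of xenobiotic and epithelial genes 14 were above 0 (median 0.35), with 2 higher at an unadjusted p under 0.05. Vdr, the vitamin D receptor, read 1416, 2220.5 and 2495 in core and 5546, 3638, 3871, 2684 and 2949 in Roseburia libraries, without overlap (difference 0.86, adjusted p = 0.588). Of 15 other conjugating and hydrolysing enzymes 11 were above 0 (median 0.02) and 0 had an unadjusted p under 0.05. As3mt, the arsenic methyltransferase, was at −0.24. It was lower without overlap, at 390 to 455 in core and 332 to 387 in Roseburia libraries. Ephx2, the soluble epoxide hydrolase, was at 0.34.

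The label of the tissue was checked against marker lists. All 9 epithelial markers were read, with summed levels between 77663 and 86953 in core and 74859 to 104409 in Roseburia libraries, and 8 of 9 had a mean difference above 0 (median 0.20). The part of epithelial content in the members' differences was not tested. The 10 absorptive colonocyte markers summed to between 64804 and 131391 in core and between 111346 and 147804 in the others. All 9 tested small intestinal markers had a difference above 0 (median 0.61). Of 4 tested distal colon markers 3 were below 0 and 1 above (median −0.44). The small intestinal markers summed to between 5194 and 11820 in core and between 5878 and 12842 in Roseburia libraries. The distal colon markers summed to between 4979 and 11350 in core and between 6651 and 15488 in the others. B4galnt2 made up most of the highest distal sums. Both lists overlapped between the groups. Position along the gut was not measured, and its part in the members' differences was not tested. Of 11 hepatocyte markers 6 were tested, and Tat (232 to 524), Cyp2e1 (34.8 to 406) and Ttr (46.4 to 207) had the highest levels. Alb ran from 10.2 to 46.6, and Apoc3, Fga and Fgb had means over 8 libraries from 1.02 to 1.23. Of the pancreatic markers Cela1 alone was tested (242 to 825), and Cpa1, Pnlip and Ctrb1 were listed at 0 in all core libraries.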

How the data were processed

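RNA of the proximal large intestine was sequenced as 8 stranded mRNA libraries, per the labels' protocols. Bowtie2, RSEM 1.2.23 and the build mm9 appear in the submitters' processing notes, without a role or an order. Each library column of the deposited table is a normalized expression signal, in which, judging from the values, the authors divided estimated reads by 1 factor per library and not by gene length. Per the file headers the table also holds a posterior probability of differential expression, used as the authors' score, and the authors' fold changes as a linear ratio. Depth was estimated as a library's sum over the step on which its low values cluster (77.3% to 83.5% of values from 2 to 30 within 0.05 of a step), so whole reads were not assumed.

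Tests ran on log2(value + 1), a scale on which low genes show too small a change, with limma 3.58.1 in R 4.3.3 (mean-variance trend), over 13020 genes with a mean of at least 10, and p-values were adjusted over all of them. Named members had an unadjusted p under 0.05, groups apart, 1 of the 4 highest means of a family or 1 of the 4 largest spreads (mean of at least 50), and other members are given by class. From each pathway list up to 2 genes with the smallest p were named, and from the NRF2 list also the genes below 0. Some genes that this rule takes, and a promoter motif that was searched, are not reported here. Members and lists were chosen with earlier results of these data known. Alternatives were other pseudocounts (0.5 and 5), filters (none and 50), scaling by a trimmed mean of M values or quantiles, each library left out, 2 numberings as a replicate block, library weights, no trend and 2 covariates. The submitters' names number the core libraries 3 to 5, and other core libraries are not analysed here. Transcript lengths and shared 50-base stretches came from GENCODE M21, a different build, matched by symbol for all 41 members. The read length is not given in the sources used here.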

Additional observations from a re-analysis of the deposited data

Results flagged for a closer look

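Sult2b1, the cholesterol sulfotransferase, stood at 278 in Roseburia replicate 1, far from the other 4 libraries of its group, which lay between 44.2 and 111. The gap was 0.714 of the group's range, just above the limit of 0.71 that Dixon's test sets for 5 samples. The ratio was taken on the values as given, not on the log2 scale of the fits, on which a high value stands out less. The test flags about 1 in 20 groups by chance, and 16 members were looked at. Sult2b1 was among these 16 for 1 of the 4 largest spreads, so that rate need not hold for it. This library also had the highest Abcc3, Fth1 and Vdr values of the 8, and what they share was not tested.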

How the results depend on the processing

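Each of 22 alternative fits left 0 members past the adjusted threshold except limma's library weights, where 1 member (Gstp1) and 455 genes passed. Without Roseburia replicate 3, the library of highest weight, 0 genes and 0 members passed (chosen after seeing the data). Lowering the posterior probability asked of the authors' deposited table to 0.90 called 0 members. Of 352 values of named members, 325 kept direction and side of the threshold, 26 changed sign and 1 (Gstp1 under the weights) passed it.

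The members with an unadjusted p under 0.05, 3 in the report, were 10 under library weights (15.5% of all genes higher and 13.9% lower), 8 with Hoxb13 (10.7% and 7.77%) and 5 with smooth muscle markers as a covariate (11.5% and 8.44%), and 9 without the 3 libraries of lowest Hoxb13 (9.74% and 5.46%). Leaving out 1 library gave 1 to 8 such members, 2 to 10 members with groups apart (2 in the report) and 0 to 1 genes called. The 8 are without core replicate 3 (4.37% of all genes higher and 3.32% lower), as are the 10 (6.41% apart and higher, 7.07% apart and lower). The 1 is without core replicate 1 (1.08% and 0.99%). Without core replicate 2 the groups were apart in 6 (8% of all genes higher and 11.8% lower). Groups were apart in 1 member under TMM scaling (2.84% of all genes higher and 2.72% lower). They were apart in 12 without the 3 libraries of lowest Hoxb13 (19% of all genes higher and 17.5% lower).

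Signs turned for 5 members whose differences lie near 0 or have wide intervals. Gstm1 (−0.03) was at 0.0019 under TMM scaling, 0.028 under the weights and 0.054 without the 3 libraries, Sult1b1 (0.00) at −0.017 under the weights, −0.071 under them without Roseburia replicate 3 and −0.046 with the muscle covariate, and Ugt2b5 (0.23) at −0.066 with Hoxb13 and −0.028 with muscle. Sult1d1 (0.15) was at −0.030 under the weights and −0.027 with muscle, and Ugt2b34 (0.08) at −0.11 with muscle. With 1 library left out the ranges were −0.51 to 0.95 for Ugt2b5, −0.10 to 0.071 for Sult1b1, −0.079 to 0.048 for Gstm1, −0.15 to 0.44 for Sult1d1 and −0.073 to 0.25 for Ugt2b34. The cause was not tested.

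Replicate numbers gave no sign of a pairing. Deviations of same-numbered libraries correlated at −0.115, −0.53 and −0.0699 by title and −0.0105, −0.407 and −0.494 by sample name. So few correlations cannot exclude a pairing, since the library order described above also enters them. With the title number as a replicate block 0 members passed. In that fit 2 (Gstp1 and Gstp2) had an unadjusted p under 0.05, beside 2.1% of all genes higher and 0.929% lower. Gstm2 and Gstm6 were not among them, and Gstm1 was at 0.096 and Sult1b1 at −0.0012. With the name number as a block 1 member (Gstp1) had an unadjusted p under 0.05 (4.09% of all genes higher and 2.45% lower), and Ugt2b5 was at −0.027.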
